A study of Mus musculus with 3 samples.

Results

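Genes of pluripotency and of primordial germ cells (PGCs) were followed in the fetal mouse ovary: *Pou5f1* (Oct4), *Nanog*, *Sox2*, *Dppa3* (Stella), *Dppa5a*, *Tfap2c*, *Prdm1* (Blimp1), *Prdm14*, *Utf1* and *Zfp42* (Rex1). The 10 genes are a fixed list, chosen with earlier results of these data known. All 10 of them are among the 18738 genes of the count tables. The tables hold 3 cryopreserved lots (26, 29 and 30) of E12.5 fetal ovarian somatic cells from CD1 mice, each lot pooled from the embryos of 10 pregnant females, with no genetic change and no treatment group. MACS with antibodies against SSEA1 and CD31 was used to deplete germ cells before freezing, and the germ cells described here are those that stayed in the flow-through. Cells were profiled by 10X Genomics single-cell RNA-seq after thawing. Germ cells were taken as barcodes with at least 5 unique molecular identifiers (UMIs) of *Dazl* and at least 1 of *Ddx4*, RNA-binding protein genes of the germ line. This gave 672 of 9711 kept cells in lot 26, 303 of 8553 in lot 29 and 365 of 10707 in lot 30, together 1340 of 28971. All lots share 1 condition, so they are used as replicates (n = 3). Each level is a gene's share of the UMIs of a group of cells, summed within a lot and scaled to 1000000 UMIs (CPM), and it is not corrected for gene length.

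Mouse PGCs arise from the epiblast, where *Prdm1*, *Prdm14* and *Tfap2c* specify them, and they keep transcription of the pluripotency factors *Pou5f1*, *Nanog* and *Sox2* while they migrate to the gonad. In the fetal ovary, germ cells stop dividing by mitosis and enter meiosis in response to signals that include retinoic acid and BMP, and *Stra8* is the classical gene of that step. Pluripotency genes are known to be shut down around this transition, so germ cells were also compared by their *Stra8* level.

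The members lie on 9 chromosomes of GRCm38 and are all annotated as protein coding. *Dppa3* (chr6:122626410-122630272) and *Nanog* (chr6:122707489-122714633) are neighbours on the plus strand, 77217 bases apart. *Sox2* (chr3:34650405-34652461) lies within the longer non-coding gene *Sox2ot* on the same strand, and *Pou5f1* (chr17:35506018-35510772) overlaps an antisense gene over 1475 bases, so reads of the partner could have been counted for the member. *Dppa3*, *Dppa5a*, *Nanog* and *Zfp42* have annotated pseudogenes elsewhere, and reads that map to several places were left out by the authors.

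RefSeq promoter windows, from 250 bases before a start to 50 after it, were at hand for 6 of the 10 members (8 windows, GRCm38.p6). They were searched on both strands for TTTGCAT, 7 letters of the octamer that POU factors such as OCT4 bind, for CATTGT, a core that SOX proteins bind, and for AGGTCA, a half-site of nuclear receptors. TTTGCAT was in 4 of the 8 windows (*Nanog* in both of its windows, *Sox2* and *Zfp42*) and in 4.63% of all 32851 windows of this length. CATTGT was in 3 of the 8 windows (both of *Nanog* and a second window of *Pou5f1*) and in 12.6% of all windows. Both windows of *Nanog* overlap and hold the same TTTGCAT and the same CATTGT, so each of these sites is counted in both. AGGTCA was in 3 of the 8 (*Nanog*, *Sox2* and *Pou5f1*) and in 16.3% of all windows. The 200 bases before the start are shown for *Nanog*, the member with the largest fall by *Stra8* level, for *Sox2* and *Zfp42*, which also hold the octamer letters, and for *Pou5f1*, the POU factor gene itself. Sequences run 5′ to 3′ on the strand of the gene, with the searched motifs, in either orientation, in capitals.
Nanog (chr6:122707289-122707488, plus strand): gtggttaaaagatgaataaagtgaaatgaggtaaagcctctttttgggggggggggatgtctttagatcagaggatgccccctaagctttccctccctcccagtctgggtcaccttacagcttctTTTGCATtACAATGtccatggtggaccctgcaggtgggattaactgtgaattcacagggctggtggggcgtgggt
Sox2 (chr3:34649795-34649994, plus strand): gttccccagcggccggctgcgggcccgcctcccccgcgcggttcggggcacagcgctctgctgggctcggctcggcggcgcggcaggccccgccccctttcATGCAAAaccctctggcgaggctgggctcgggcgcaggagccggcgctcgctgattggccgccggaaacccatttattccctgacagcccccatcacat
Zfp42 (chr8:43307010-43307209, minus strand): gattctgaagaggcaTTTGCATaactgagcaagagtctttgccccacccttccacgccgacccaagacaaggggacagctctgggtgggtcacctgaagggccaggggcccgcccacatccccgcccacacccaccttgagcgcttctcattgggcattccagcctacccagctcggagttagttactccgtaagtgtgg
Pou5f1 (chr17:35505832-35506031, plus strand): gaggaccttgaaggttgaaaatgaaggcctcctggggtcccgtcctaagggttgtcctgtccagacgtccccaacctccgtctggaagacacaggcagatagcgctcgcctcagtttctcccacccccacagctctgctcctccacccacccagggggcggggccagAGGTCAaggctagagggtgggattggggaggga
In *Nanog* the octamer letters begin 75 bases before the start, and the SOX-like letters follow 1 base after them without overlap. In *Sox2* the octamer letters begin 99 bases before the start on the opposite strand, and in *Zfp42* 185 bases before it. *Pou5f1* holds AGGTCA from 33 bases before the start, and the AGGTCA of *Nanog* and *Sox2*, 248 and 244 bases before it, lie outside the stretches shown. These are matches of letters, not measured binding sites.

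The lots held 87494974 to 141920060 UMIs before filtering. Germ cells had about the double depth of other cells, with a median of 22598.5, 18383 and 24387 UMIs per germ cell in lots 26, 29 and 30 against 10742, 8785.5 and 11411 per other cell. Between 19 and 30 kept barcodes were shared by a pair of lots, and 0 germ cell barcodes were. All 10 germ cell markers outside the rule (*Mael*, *Tdrd5*, *Tdrd12*, *Tdrd9*, *Piwil2*, *Nanos3*, *Dnd1*, *Rnf17*, *Sycp3* and *Asz1*) were called higher in the germ cells than in other cells. The same direction was called for 35.9% of all genes tested. *Dazl*, a gene of the rule, had 951, 922 and 1125 CPM in the germ cells of the 3 lots, and *Ddx4* had 246, 262 and 241 CPM.

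All 10 members were higher in germ cells than in all other kept cells, by 18.4-fold for *Utf1* to 91.4-fold for *Dppa3* (edgeR quasi-likelihood test on sums per lot). The same direction was called for 35.9% of the 15293 genes tested, and the median log2 fold change was 5.78 over the members and -0.06 over all genes tested. The lowest germ cell lot was above the highest lot of other cells for 10 of 10 members, as it was for 35.5% of all genes tested.

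*Pou5f1*, the POU factor at the core of the pluripotency network, had 17.3, 17.8 and 21.5 CPM in germ cells of lots 26, 29 and 30 against 0.322, 0.185 and 0.152 CPM in other cells (log2 fold change 6.46, SE 0.24, adjusted p = 1.8e-07). *Nanog*, the homeobox partner of this core, had 9.81, 12.3 and 9.77 CPM in germ cells and 0.340, 0.382 and 0.296 CPM elsewhere (log2 fold change 5.01, SE 0.23, adjusted p = 3.4e-07). *Sox2*, the HMG-box partner, had 96.7, 105 and 112 CPM in germ cells and 2.08, 1.16 and 0.767 CPM elsewhere (log2 fold change 6.35, SE 0.31, adjusted p = 4.0e-07). The 3 core factors were thus similar between lots in germ cells, and the level in other cells was lowest in lot 30 for all 3.

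Of the PGC specification factors, *Tfap2c*, which encodes the AP-2γ transcription factor, had 28.1, 36.1 and 26.8 CPM in germ cells and 1.22, 0.974 and 0.782 CPM in other cells (log2 fold change 4.98, SE 0.22, adjusted p = 3.0e-07). *Prdm14* had 7.72, 8.51 and 8.95 CPM in germ cells and at most 0.136 CPM elsewhere (log2 fold change 6.34, SE 0.31, adjusted p = 4.2e-07). *Prdm1*, the transcriptional repressor BLIMP1, had 18.1, 16.1 and 19.0 CPM in germ cells, with 1.75, 0.666 and 0.486 CPM in other cells (log2 fold change 4.25, SE 0.40, adjusted p = 1.3e-05). *Prdm1* in other cells was highest in lot 26, where it reached 9.69% of its germ cell level.

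*Dppa3*, a maternal factor that protects DNA methylation in the zygote and a classical PGC marker, had 646, 922 and 690.1 CPM in germ cells against 11.7, 10.0 and 4.09 CPM (log2 fold change 6.51, SE 0.43, adjusted p = 1.6e-06). *Dppa5a*, an RNA-binding protein gene of pluripotent cells, had 894, 1128 and 748 CPM against 15.1, 13.6 and 4.29 CPM (log2 fold change 6.46, SE 0.50, adjusted p = 3.8e-06). Both were detected in nearly every germ cell, *Dppa3* in at least 96.9% and *Dppa5a* in at least 99.9% of the germ cells of each lot. *Utf1*, a chromatin factor of pluripotent cells, had 183, 262 and 201 CPM against 9.01, 15.6 and 11.6 CPM (log2 fold change 4.20, SE 0.27, adjusted p = 1.4e-06). *Zfp42*, the zinc finger gene known as Rex1, had 40.3, 52.0 and 36.1 CPM against 1.44, 1.16 and 0.972 CPM (log2 fold change 5.22, SE 0.22, adjusted p = 2.6e-07).

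Lots differed in germ cells by less than in the contrast with other cells. The highest lot was 1.16-fold (*Sox2*) to 1.51-fold (*Dppa5a*) above the lowest. Lot 29 was highest for *Dppa3*, *Dppa5a*, *Tfap2c*, *Utf1* and *Zfp42*, where its exact Poisson 95% interval lay above those of both other lots. For the other 5 members the interval of the highest lot overlapped with at least 1 other. These intervals cover counting error only, and no test between lots was made since each is 1 sample.

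**Figure D1:**
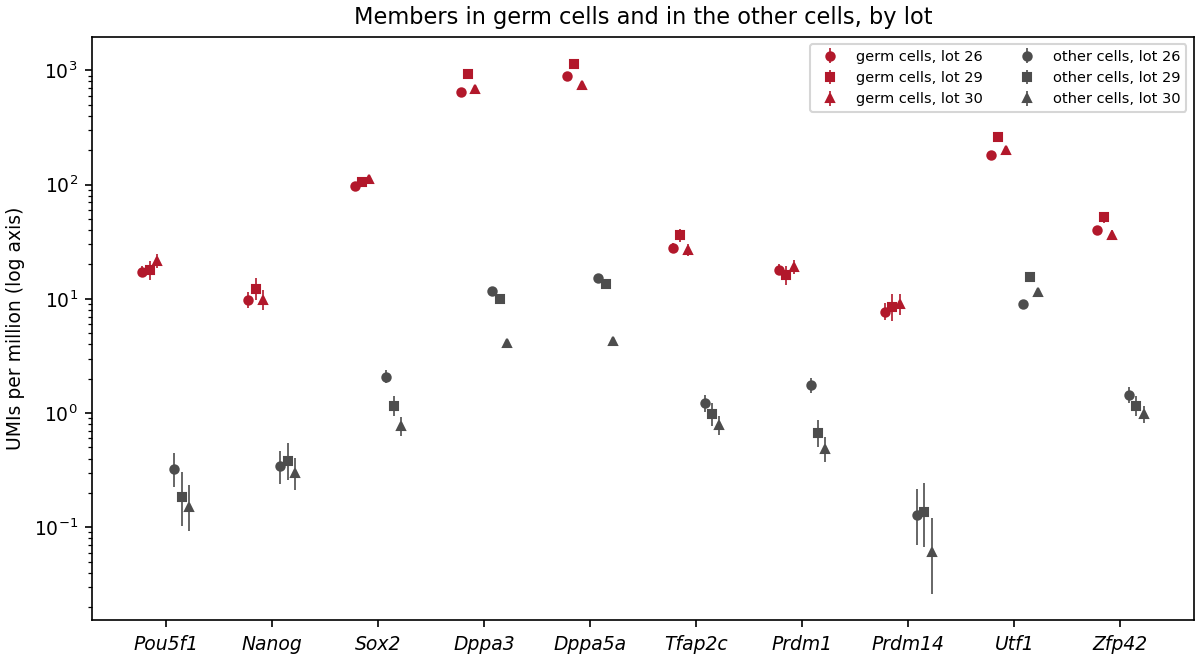
Level of the 10 members (CPM, log axis) in germ cells (red) and in all other kept cells (grey) of lots 26 (circles), 29 (squares) and 30 (triangles), with exact Poisson 95% intervals. Every red point lies above every grey point of the same gene, with a fitted gap of 18.4-fold for *Utf1* and 91.4-fold for *Dppa3*.

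Since germ cells are deeper, shares of cells with a UMI were compared after each cell was thinned to 4000 UMIs, which left out 0 germ cells and 835 other cells. *Dppa5a* was then detected in 93.2% ± 2.58 (SD, n = 3 lots) of germ cells and 1.03% to 2.90% of other cells. *Utf1* was detected in 51.6% ± 5.10 against 3.64% ± 0.773, and *Sox2* in 30.7% ± 2.35 against 0.358% ± 0.141. The less abundant UMIs gave low shares at this depth also in germ cells, as for *Nanog* with 3.64% ± 0.862 against 0.128% ± 0.0192, and *Prdm14* with 2.83% ± 0.937 against 0.0271% ± 0.0203. Without thinning, *Nanog* was detected in 18.2% ± 0.941 of germ cells and 0.369% ± 0.0179 of other cells.

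Cells close to the limits of the rule differed by how they missed it. Just inside it, the 76, 39 and 18 germ cells with 5 to 9 *Dazl* UMIs had 529, 887 and 709 CPM of *Dppa3*. Just outside it, 37, 25 and 16 barcodes with 5 or more *Dazl* UMIs but 0 of *Ddx4* had 805, 1160.5 and 528 CPM of *Dppa3* and 32.6, 13.7 and 25.3 CPM of *Pou5f1*. These few barcodes, counted among other cells, held 62.9%, 40.0% and 35.0% of the *Pou5f1* UMIs of other cells, but 17.4%, 13.8% and 3.28% of those of *Utf1*. Barcodes with fewer *Dazl* UMIs were lower or uneven. The 19, 5 and 5 barcodes with 2 to 4 *Dazl* UMIs and *Ddx4* had 327, 1020 and 127 CPM of *Dppa3*. The 612, 180 and 424 barcodes with 1 to 4 *Dazl* UMIs and 0 of *Ddx4* had 11.3, 20.1 and 7.36 CPM of *Dppa3* and 0.113, 1.44 and 0.307 CPM of *Pou5f1*, and with 1 *Dazl* UMI and *Ddx4* (20, 1 and 3 barcodes) *Dppa3* was at 96.4, 500.4 and 21.9 CPM. With other cells limited to those with no *Dazl* and no *Ddx4* UMI, the log2 fold change of all 10 members was still called, and *Pou5f1* rose from 6.46 to 7.93.

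A list of 26 further genes of the pluripotency network followed in most cases. Of its 23 genes tested, 18 were higher and 4 lower in germ cells (35.9% and 38.9% of all genes tested), and 1 was not called. *Dppa2* had 21.4 ± 1.29 CPM in germ cells and 0.305 ± 0.129 elsewhere (log2 fold change 6.18), and its partner *Dppa4* 103 ± 6.64 and 1.63 ± 0.917 CPM (log2 fold change 6.05). *Sall4*, a zinc finger factor, and *Tcl1*, a cofactor of AKT kinase, were higher by log2 fold changes of 6.02 and 6.07. Lower in germ cells were *Nr0b1* (2.87 ± 0.868 against 25.1 ± 1.41 CPM), *Klf4* (44.5 ± 33.8 against 233 ± 132 CPM) and *Klf2* (76.6 ± 31.4 against 189.8 ± 123 CPM), factors which somatic cells also use. The other gene called lower was *Tbx3*, named here after its values were seen. Of 15 tested genes of a PGC list, 13 were higher and 1 was lower, *Ifitm1* (1113 ± 94.2 against 1879 ± 88.7 CPM). The lists share *Lin28a* and *Sall4*.

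Germ cells were then grouped by *Stra8*. The none level is germ cells with 0 *Stra8* UMIs (46, 30 and 24 cells in lots 26, 29 and 30). The cells with *Stra8* were split at the median of *Stra8* per 10000 UMIs in each lot into a low level (313, 137 and 171 cells) and a high level (313, 136 and 170 cells). All 10 members were lower in *Stra8*-high than in *Stra8*-none germ cells by the edgeR test, against 12.9% of the 11223 genes tested. The median log2 fold change was -1.57 over the members and 0.00 over all genes. In 10 of 10 members each lot's high level was below every lot's none level, as in 16% of all genes tested. In 9 of 10 the order was none above low above high in each lot, as in 9.08% of all genes, and the exception was *Sox2*, whose high level in lot 30 was above its low level. The call fell to 8 of 10 members without lot 26 (*Pou5f1*, adjusted p = 0.064, and *Dppa3*, adjusted p = 0.13, were not called) and to 7 of 10 when germ cells were split once at the median of *Stra8* (*Sox2*, 0.054, *Dppa3*, 0.13, and *Dppa5a*, 0.10).

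*Nanog* had the largest difference of the members in the fit and in each lot. Its level was 22.1, 40.3 and 34.4 CPM in *Stra8*-none cells of lots 26, 29 and 30, 14.3, 12.6 and 12.5 CPM in low cells and 2.47, 4.77 and 2.65 CPM in high cells. The high level was 7.71% to 11.8% of the none level (log2 fold change -3.42, SE 0.33, adjusted p = 3.1e-06). The groups did not overlap, although the none level rests on 74 UMIs in all and the high level on 41.

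*Pou5f1* and *Sox2* fell less far. *Pou5f1* had 31.0, 34.1 and 29.9 CPM at the none level and 10.2, 9.54 and 20.5 CPM at the high level (log2 fold change -1.31, SE 0.28, adjusted p = 0.0024). Lot 30 stands apart here, since its high level kept 68.5% of the none level against 32.8% in lot 26 and 28.0% in lot 29, while the low level was 21.4, 21.1 and 21.2 CPM in the 3 lots. *Sox2* had 152, 158 and 175 CPM at the none level and 71.6, 89.0 and 109.8 CPM at the high level (log2 fold change -0.91, SE 0.15, adjusted p = 3.8e-04). *Sox2* transcripts therefore remained at 47.0% to 62.8% of the none level in the cells with the most *Stra8*.

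The PGC specification factors fell in every lot. *Tfap2c* had 70.0, 88.4 and 85.1 CPM at the none level, 34.8, 41.5 and 29.4 CPM at the low level and 13.5, 15.9 and 14.4 CPM at the high level (log2 fold change -2.54, SE 0.20, adjusted p = 4.7e-07). It was the most even member between lots, with the high level at 17.0% to 19.2% of the none level. *Prdm14* had 20.4, 15.5 and 26.9 CPM at the none level and 3.02, 5.17 and 6.74 CPM at the high level (log2 fold change -2.21, SE 0.34, adjusted p = 2.1e-04). *Prdm1* had 36.3, 34.1 and 35.9 CPM at the none level and 9.07, 12.3 and 13.7 CPM at the high level (log2 fold change -1.71, SE 0.23, adjusted p = 6.0e-05). The 3 genes rest on 51 to 193 UMIs at the none level and 63 to 198 at the high level, with *Prdm14* the sparsest.

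*Dppa3*, which is also used later as a maternal factor of the oocyte, fell by an amount near that of *Sox2*. It went from 1054, 1319.5 and 789 CPM at the none level to 443, 746 and 646 CPM at the high level (log2 fold change -0.85, SE 0.23, adjusted p = 0.010), and in lot 30 the high level was still 81.9% of the none level. *Dppa5a* had 1726, 1847 and 1337 CPM at the none level and 707, 898 and 657 CPM at the high level (log2 fold change -1.18, SE 0.20, adjusted p = 4.7e-04). Per lot, the log2 ratio of high to none ran from -1.25 to -0.29 for *Dppa3* and from -3.70 to -3.08 for *Nanog*, its neighbour on the chromosome. These ranges did not overlap, and the difference between members was not tested.

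*Utf1* had 360.4, 493 and 323 CPM at the none level and 112, 184 and 162 CPM at the high level (log2 fold change -1.43, SE 0.21, adjusted p = 1.6e-04). *Zfp42* had 99.2, 126 and 98.6 CPM at the none level, 46.6, 49.3 and 32.9 CPM at the low level and 23.6, 36.6 and 29.9 CPM at the high level (log2 fold change -1.94, SE 0.22, adjusted p = 1.4e-05). Both markers of pluripotent cells thus fell with *Stra8* in each lot. *Dazl* and *Ddx4* chose the cells by a minimum of UMIs, which shapes their levels, so they are values only and no contrast with the members. *Ddx4* had 123 ± 26.1, 215 ± 13.2 and 315 ± 15.6 CPM at the none, low and high levels. *Dazl* had 795 ± 89.3, 919 ± 72.3 and 1132 ± 163 CPM.

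**Figure D2:**
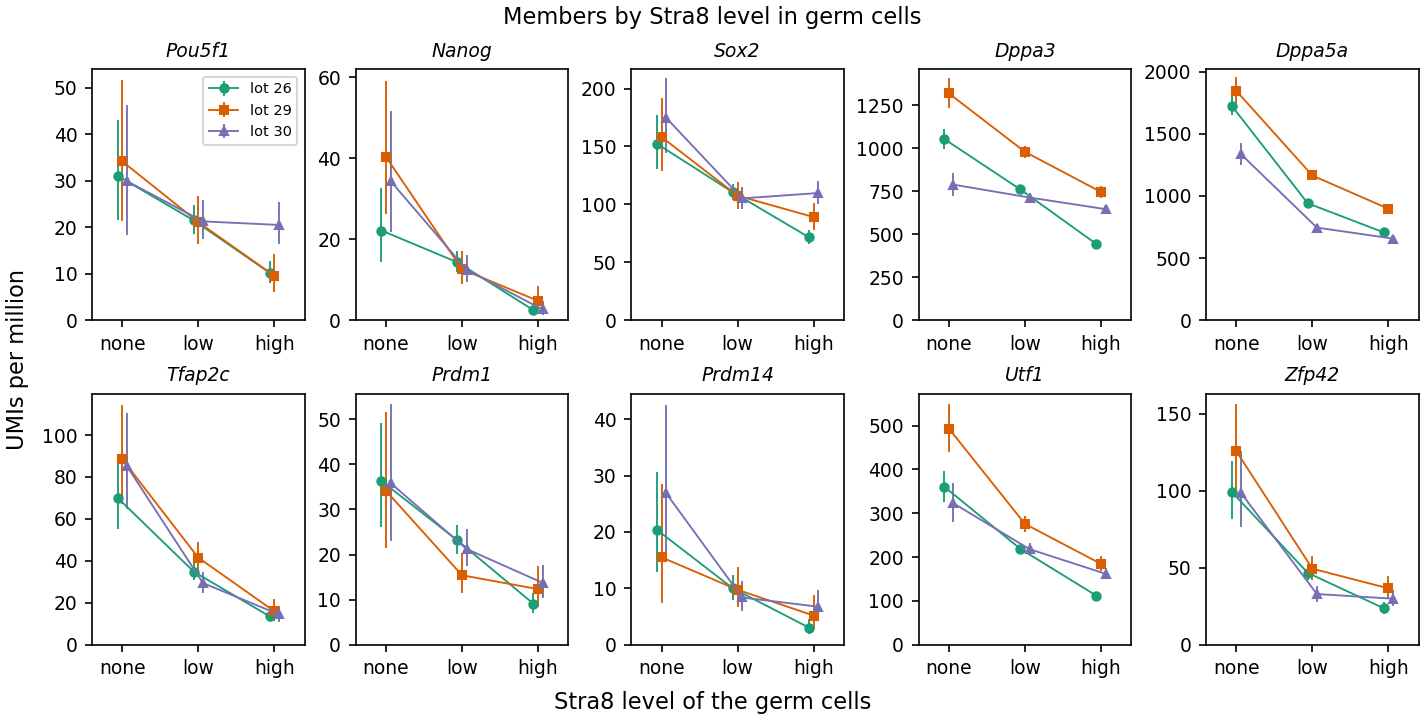
Level of each member (CPM, axes from 0) in germ cells with no, low and high Stra8, with 1 line per lot and exact Poisson 95% intervals. All lines fall from none to high, *Nanog* to 2.47 to 4.77 CPM, and the lines of lot 30 for *Pou5f1* and *Sox2* are flat from low to high.

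The fall was also tested in steps. From none to low, 7 of 10 members were called lower, against 2% of all genes tested: *Nanog* (log2 fold change -1.30), *Sox2* (-0.64), *Dppa5a* (-0.84), *Tfap2c* (-1.26), *Prdm1* (-0.87), *Prdm14* (-1.21) and *Zfp42* (-1.38). *Pou5f1* (log2 fold change -0.64, adjusted p = 0.21), *Dppa3* (-0.43, 0.34) and *Utf1* (-0.79, 0.051) were not called in this step. From low to high, 6 of 10 were called lower, against 6.9% of all genes: *Pou5f1* (-0.67), *Nanog* (-2.13), *Tfap2c* (-1.29), *Prdm1* (-0.84), *Prdm14* (2.00-fold lower) and *Utf1* (-0.65). *Nanog*, *Tfap2c*, *Prdm1* and *Prdm14* passed in both steps. The change of *Zfp42* from low to high (-0.56, SE 0.20) had an adjusted p of 0.070. Whether a member's 2 steps differ in size was not tested, and neither step was tested without called doublets.

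Shares of germ cells were compared after each cell was thinned to 10000 UMIs, which left out 3, 19 and 18 cells at the none, low and high levels. In each lot every member was detected in a larger share of *Stra8*-none than of high cells, except *Dppa5a* in lot 29, which was in all cells of both levels. The low level did not always lie between them. *Nanog* in lot 26 was in 13.6% of none and 13.9% of low cells, and in lot 30 *Sox2* (56.6% and 64.7%), *Zfp42* (21.7% and 25.7%) and *Prdm14* (6.02% and 7.19%) had larger shares in high than in low cells. Slightly larger at high than at low were also *Sox2* in lot 29 (57.1% and 57.6%) and, in lot 30, *Dppa3* and *Dppa5a* (98.2% and 98.8% for each). The median germ cell had UMIs of 5, 6 and 6 of the 10 members at the none level in lots 26, 29 and 30, of 5, 5 and 4 at the low level and of 3, 4 and 4 at the high level, with none and low equal in lot 26 and low and high equal in lot 30. *Nanog* was detected in 13.6% to 33.3% of *Stra8*-none cells, 11.8% ± 2.52 (SD, n = 3 lots) of low cells and 2.94% ± 0.742 of high cells. *Tfap2c* went from 48.8% ± 8.31 to 24.5% ± 7.73 and 11.4% ± 2.61. *Dppa5a* was still detected in 99.2% ± 0.731 of *Stra8*-high cells and *Dppa3* in 95.9% ± 5.37, so the lower levels of these genes were fewer UMIs per cell. At least 1 of *Tfap2c*, *Prdm1* and *Prdm14* was detected in 56.8%, 72.4% and 75.0% of *Stra8*-none cells, 43.2%, 47.4% and 37.3% of low cells and 22.8%, 24.2% and 24.0% of high cells. At least 1 of *Pou5f1*, *Nanog* and *Sox2* was detected in 79.5%, 89.7% and 87.5% of none, 68.0%, 65.4% and 66.9% of low and 53.3%, 61.4% and 72.5% of high cells, so that lot 30 was higher at high than at low.

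The wider lists went with the members. Of 19 tested genes of the pluripotency network, 12 were lower in *Stra8*-high cells, 0 were higher and 7 were not called, with a median log2 fold change of -1.19. Over all genes tested, 12.9% were lower and 13.3% higher. *L1td1*, an RNA-binding protein gene of pluripotent cells, went from 150.4 ± 26.7 CPM to 17.8 ± 4.21 CPM (log2 fold change -3.19, SE 0.22, adjusted p = 1.5e-07). *Gdf3*, a TGF-β family ligand gene 16323 bases from *Dppa3*, went from 50.7 ± 7.42 to 9.82 ± 1.65 CPM (log2 fold change -2.49). *Tcl1* and *Dppa2* were lower by log2 fold changes of -2.45 and -2.19. Of 13 tested PGC genes, 10 were lower (12.9% over all genes), 0 were higher and 3 were not called. Among them were *Nanos3* (43.9 ± 7.97 to 10.2 ± 3.49 CPM, log2 fold change -2.15) and *Dnd1* (199 ± 39.4 to 75.4 ± 14.0 CPM, -1.46), RNA-binding proteins needed for PGC survival, and the interferon-induced membrane protein gene *Ifitm3* (561 ± 9.67 to 250.2 ± 35.2 CPM, -1.23). *Pecam1*, which encodes the CD31 antigen used for depletion, went from 107 ± 2.62 to 25.4 ± 8.08 CPM (-2.21), and how the depletion acted on the levels was not tested.

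Genes of meiotic entry went the other way. Of 19 tested, with *Stra8* left out, 17 were higher in *Stra8*-high cells, 0 were lower and 2 were not called, against 13.3% of all genes higher. Their median log2 fold change was 2.46, and the genes named next were picked by size of change. *Sycp1* and *Sycp2* of the synaptonemal complex rose by log2 fold changes of 3.38 and 3.64, the meiotic cohesin *Rec8* by 3.33 (23.6 ± 12.5 to 265 ± 14.8 CPM) and *Figla*, a transcription factor of oocytes, by 3.53. From none to low, 8 of the 19 were already higher, against 1.27% of all genes.

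**Figure D3:**
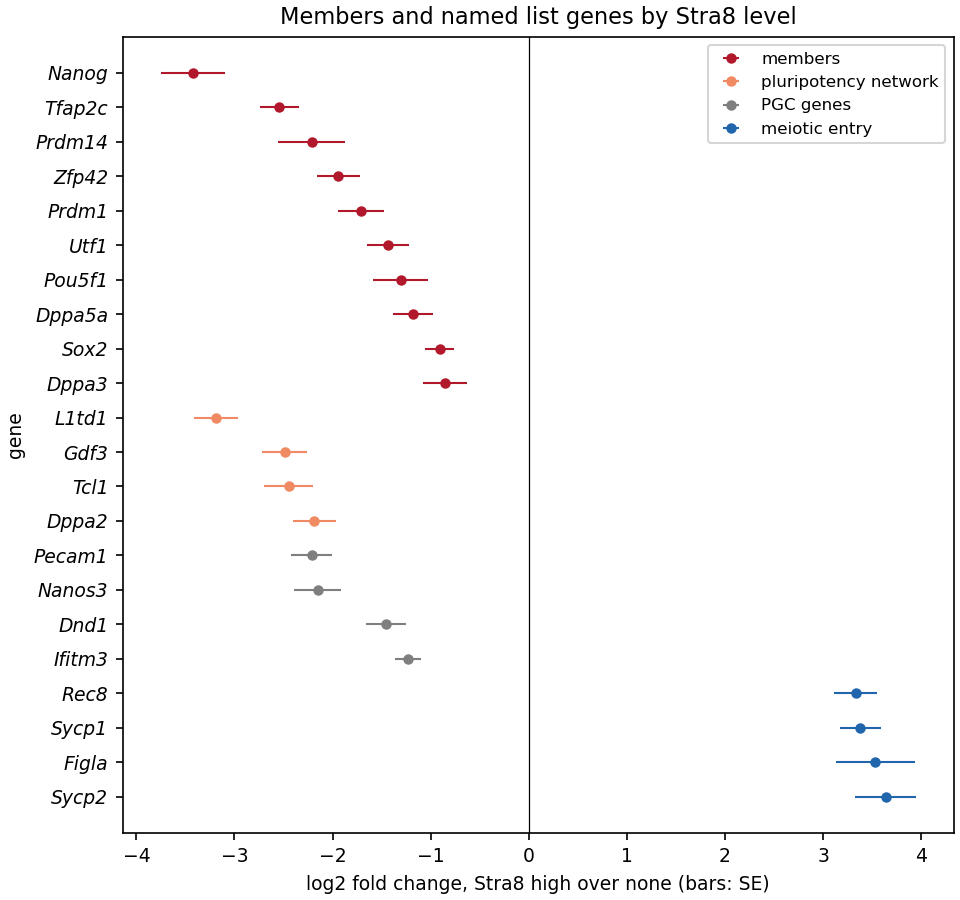
Log2 fold change of *Stra8*-high over *Stra8*-none germ cells (bars, SE) for the 10 members and for named genes of the pluripotency network, PGC and meiotic entry lists. All members are shown and lie between -3.42 and -0.85. The list genes were picked by size of fold change, and the 4 meiotic genes so picked lie above 3.

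Other measures also differed between the *Stra8* levels, not all of them in order. The median share of mitochondrial UMIs was 1.44%, 0.769% and 1.52% at the none level, 1.21%, 0.722% and 1.16% at the low level and 0.959%, 0.527% and 0.891% at the high level. A Y-linked UMI was seen in 8.70%, 10.0% and 0% of *Stra8*-none cells, 2.24%, 4.38% and 0.585% of low cells and 1.28%, 1.47% and 0% of high cells, and all 10 members were called without these cells. Of the 6 hemoglobin genes, 3 of 5 tested were lower at the high than at the none level, against 12.9% of all genes. Their summed levels were 2456, 183 and 110.5 CPM at none, 1134, 3833 and 87.4 CPM at low and 85.3, 156 and 90.8 CPM at high, so the gap between none and high lay mainly in lot 26, and lot 29 was highest at low. Of 6 myeloid genes, 3 of 5 tested were lower (12.9% over all genes), with summed levels of 54.0, 12.4 and 7.47 CPM at none, 48.2, 25.1 and 36.9 CPM at low and 7.97, 10.7 and 8.67 CPM at high. For pre-granulosa genes 0 of 6 tested were called between high and none. Summed over 7 such genes, the levels were 291, 126 and 426 CPM at none and 373, 175 and 457 CPM at low. At high they were 246, 142 and 207 CPM. Called doublets were 5 of 46, 3 of 30 and 4 of 24 cells at none. There were 56 of 313, 21 of 137 and 45 of 171 at low, and 30 of 313, 4 of 136 and 10 of 170 at high. Among the comparisons of *Stra8* levels, doublets were removed only for high against none. All 10 members were called in the same direction without the germ cells that held 50 or more hemoglobin UMIs, without called doublets and with germ cells thinned to 10000 UMIs, while the part of the myeloid genes in the result was not tested.

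Outside the germ cells, *Utf1* and *Prdm1* had levels that stood out in cells without *Dazl*. These cells were gated by pairs of marker genes, and the levels are a description with no test. *Utf1* had 9.25, 20.9 and 16.6 CPM in cells gated by *Wnt4* and *Wnt6*, genes of pre-granulosa cells (9366 cells), against 2.15, 1.31 and 2.01 CPM in cells gated by the stromal genes *Tcf21* and *Nr2f2* (3135 cells). It was higher still in cells gated by *Amh* and *Sox9*, genes of Sertoli cells, with 48.3, 48.2 and 36.0 CPM (287 cells, 93 with a UMI), which is 17.9% to 26.4% of the germ cell level. Within these lots *Dppa3* in *Wnt4* and *Wnt6* cells was at 0.259% to 0.778% of its germ cell level and *Stra8* at 0.204% to 0.593%, but *Utf1* at 5.06% to 8.23%. In the stromal gate *Utf1* was at 0.502% to 1.17%.

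*Prdm1* was highest in cells gated by the endothelial genes *Cdh5* and *Egfl7*. Its level there was 43.3, 30.0 and 30.8 CPM in lots 26, 29 and 30 (141 UMIs, 75 of 244 cells), above the 16.1 to 19.0 CPM of germ cells and close to the 34.1 to 36.3 CPM of *Stra8*-none germ cells. In the 83 cells gated by the myeloid genes *Fcer1g* and *Tyrobp* it was 9.58, 4.63 and 6.79 CPM, on 7 UMIs. In *Wnt4* and *Wnt6* cells *Prdm1* was at 0.135 to 0.304 CPM.

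*Sox2* stayed at 0.226 to 1.28 CPM in the *Wnt4* and *Wnt6*, stromal and surface epithelial gates, and it had 0 UMIs in the 244 cells of the endothelial gate.

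*Dppa3* was at 3.36 ± 1.45 CPM in *Wnt4* and *Wnt6* cells, 3.43 ± 1.25 in stromal-gated cells and 4.28 ± 1.97 in cells gated by *Upk3b* and *Krt19* of the surface epithelium. Within each lot it was higher in the *Upk3b* and *Krt19* cells (6.42, 2.56 and 3.87 CPM) than in the *Wnt4* and *Wnt6* cells (5.03, 2.39 and 2.66 CPM), with no test. *Pou5f1* had 7 UMIs in 9366 *Wnt4* and *Wnt6* cells, 0.0587 ± 0.0157 CPM. *Prdm14* had 6 UMIs there and 0 in the stromal and surface gates. *Zfp42* was low but uneven, with 1.85, 0.767 and 1.16 CPM in *Wnt4* and *Wnt6* cells and 0.0826, 0.404 and 0.223 CPM in stromal-gated cells.

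**Figure D4:**
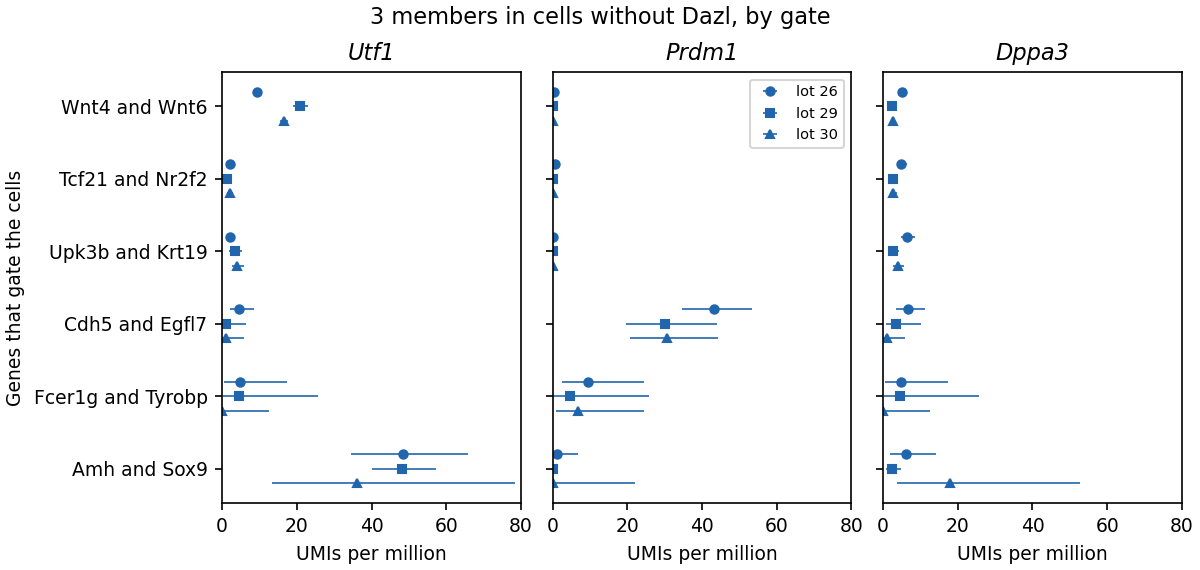
Level of *Utf1*, *Prdm1* and *Dppa3* (CPM, axes from 0) in cells without *Dazl*, by the pair of genes that gates them, for lots 26 (circles), 29 (squares) and 30 (triangles), with exact Poisson 95% intervals. *Utf1* peaks in *Amh* and *Sox9* cells (36.0 to 48.3 CPM) and *Prdm1* in *Cdh5* and *Egfl7* cells (30.0 to 43.3 CPM).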

How the data were processed

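The authors found barcodes with UMI-tools, used STAR 2.7 for alignment on GRCm38, assigned reads with a unique position to genes by featureCounts 2.0.1 and deposited UMI counts per gene and barcode, not normalized. The annotation release and the strand setting are not given in the sources used here. Barcodes with 200 to 9000 genes and at most 10% mitochondrial UMIs were kept (28971 of 3 lots). Cells are not replicates, so counts were summed per lot and class and tested with edgeR 4.0.16 (filterByExpr, TMM, quasi-likelihood test). The SE of a log2 fold change is approximate, its absolute value divided by the square root of the F statistic, since edgeR reports none. p-values were adjusted by Benjamini-Hochberg across every gene in a fit and called under 0.05 (R 4.3.3). *Dazl*, *Ddx4* and, within germ cells, *Stra8* chose the cells and are given as values only. The test was checked on simulated sums with changes of known size. By *Stra8* level, 79% of changes of log2 size 1 and 99% of size 2 were recovered, with 6.8% of calls false. For germ against other cells 89% and 100% were recovered, with 4.5% of calls false. The simulated sums were drawn independently, so the check does not cover the pairing of sums within a lot. p-values measure the spread between 3 pooled lots. Doublets were called per lot with Scrublet in scanpy 1.11.5 (expected rate 0.08) and removed only in an alternative.

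Sums of 1 lot come from the same pool and are thus paired. Their deviations from the class means correlated at r = 0.627 to 0.680 (germ and other cells) and 0.280 to 0.601 (*Stra8* levels). The main fits have no term for the lot, and a fit with the lot as block was an alternative. Other alternatives were other scaling, no low-count filter, DESeq2 1.42.0, other cell filters and germ cell rules, other *Stra8* splits, thinning, and each lot left out. The removal of hemoglobin-rich germ cells was added after seeing the data.

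Shares have exact Clopper-Pearson and levels exact Poisson 95% intervals, for counting error only. Thinning draws each cell's UMIs without replacement. The named genes are the 10 members and, from each list, up to 4 genes a direction by fold change among those called with at least 20 CPM in 1 group in every lot. The members and lists (pluripotency network, PGC, meiotic entry, XY germ cells, and markers of germ, pre-granulosa, stromal, surface epithelial, endothelial, myeloid, red and Sertoli cells) were chosen with earlier results of these data known. Gene positions are from GENCODE M21 on GRCm38, and promoter sequences from RefSeq, GRCm38.p6. *Xist* was not analysed here. Some gates and the nearest genes of 2 members are not reported here.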

Additional observations from a re-analysis of the deposited data

How the results depend on the processing

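In germ cells against other cells, all 10 members were called higher under each of 15 alternatives. By *Stra8* level, 10 of 10 were called lower in the main fit and under all but 2 of 17 alternatives. Leaving out each lot gave 8 to 10 called members, and the 8 came without lot 26, where *Pou5f1* (log2 fold change -1.08) and *Dppa3* (-0.65) were not called. The single split at the median gave 7, with *Sox2* (-0.41), *Dppa3* (-0.49) and *Dppa5a* (-0.51) not called. The cause was not tested. No member reversed. With the lot as a replicate block, 10 members were called in both comparisons, and the genes called by *Stra8* level went from 1496 higher and 1449 lower to 2001 and 2091. The block changed no member's call. Over all genes, the counts by *Stra8* level were 597 higher and 597 lower without lot 26, 847 and 752 without lot 30, 1029 and 929 after thinning, and 892 and 847 with 5 or more *Stra8* UMIs against 0. Shares of germ cells with a UMI fell on thinning to 4000 UMIs, as for *Pou5f1* from 33.3% to 7.23%. Depth limits *Prdm14* and *Nanog* most, with 51 and 74 UMIs at the none level.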

Other observations

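Genes with a pattern like that of a member were sought among 9336 genes by the Pearson correlation of log2(CPM + 1) over 12 sums, those of other cells and of the 3 *Stra8* levels in each lot. The sums of a lot share its pool, and germ and other cells differ in all of them, so these values are a description. For the 8 members given here, the 3 nearest genes had r of 0.989 to 0.998. *Sox2* was nearest to *Sall4*, *Phlda2* and *Trim71*, and *Prdm14* to *Isl2*, *Ifitm3* and *Msh6*. *Dppa3* and *Dppa5a* were among the nearest of each other (r = 0.997), with *Rhox5* and *Rpl39l* beside *Dppa3* and *Rhox9* and *Rhox6* beside *Dppa5a*. *Nanog* was nearest to *Nol9*, *Ppan* and *Ccna2*, and *Prdm1* to *Trim6*, *Liph* and *Gstm3*. *Utf1* was nearest to *Nup43*, *Pop5* and *Gtpbp4*, and *Zfp42* to *Syt5*, *3110002H16Rik* and *Rhebl1*.

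Of the list for XY germ cells, 6 of 7 tested genes were higher in germ cells than in other cells (35.9% over all genes) and 1 was not called, with *Tex19.1* at 162 ± 13.9 CPM in germ cells against 2.18 ± 0.773 CPM. By *Stra8* level, 0 of 2 tested were called. Lower in germ cells, against 38.9% of all genes tested, were 7 of 7 tested pre-granulosa markers, 6 of 6 stromal, 4 of 5 surface epithelial, 6 of 6 endothelial, 5 of 5 Sertoli and 3 of 5 red cell markers, and 0 of 6 myeloid markers were called. By *Stra8* level, 1 of 6 stromal, 1 of 3 endothelial, 0 of 4 surface epithelial and 0 of 3 Sertoli markers were lower at the high level, against 12.9% of all genes. Of 9 tested germ cell markers, 3 were higher at the high level, against 13.3% of all genes (*Sycp3*, *Mael* and *Rnf17*) and 3 were lower (*Nanos3*, *Dnd1* and *Tdrd12*).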
